A study of Mus musculus with 3 samples.

Results

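Scd1, Dgat1 and Aoc3 are genes of lipid synthesis and of adipocytes, and their transcripts were followed in the marrow of castrated mice with and without testosterone. They were taken as every spot that had a value on all 3 arrays and that the platform annotation assigns to exactly 1 gene, that gene being Scd1, Dgat1 or Aoc3. This gave 3 spots for 3 genes, 1 spot each, among 6039 spots analysed and 3462 named genes. With 1 spot per gene, the gene mean is the value of that spot, and no second spot assigned to the gene alone was there to compare it with.

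All mice were castrated C57BL/6 mice, operated at 7 weeks and 17 weeks old at collection, and the control mice carried the castration too. One mouse of each pair received a testosterone pellet of 12.5 mg for release over 60 days, and the other a placebo pellet. The treatment lasted 4 weeks. Each of the 3 two-colour arrays, T1, T2 and T3, set the marrow RNA of 1 treated mouse against that of its matched placebo mouse (n = 3 pairs), with testosterone in Cy5 on T1 and T3 and in Cy3 on T2. The labels name the tissue as bone marrow, while the extraction protocol speaks of pulverized bone. Ratios carry no expression level, so the tissue could not be checked by how strongly its markers were expressed. A positive value is taken to mean more transcript with testosterone and the scale is taken as log2. The sources used here state neither; the direction follows the design text, which calls testosterone the experimental side, and is therefore only likely.

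Marrow holds adipocytes beside blood-forming cells, and fat is stored in them as triglyceride. Stearoyl-CoA desaturase, encoded by Scd1, puts a double bond into saturated fatty acids and yields oleate and palmitoleate, the preferred building blocks of triglycerides and membrane lipids. Diacylglycerol acyltransferase, encoded by Dgat1, adds the last fatty acid to diacylglycerol and so completes a triglyceride. Aoc3 encodes a copper-containing amine oxidase on the cell surface, also known as vascular adhesion protein, which is abundant in adipocytes and smooth muscle and is found on endothelium.

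Scd1 had the most negative ratio of the 3 genes on every array, and Dgat1 and Aoc3 had positive ratios on every array. On T1 the Scd1 ratio was -0.85, on T2 it was -1.11 and on T3 it reached -1.66. It was below 0 in all pairs, least on T1 and most on T3, and the fold reduction went from 1.81 on T1 through 2.16 on T2 to 3.15 on T3. The mean was -1.21 ± 0.41 (SD, n = 3 pairs), a 2.31-fold lower level with testosterone. In a bulk sample, fewer cells that express a gene and less RNA per cell cannot be told apart, and this holds for every ratio here.

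Scd1 lay near the bottom of the whole distribution. Among the 6039 spots, 64 were lower than Scd1 on T1, 49 were lower on T2 and only 10 were lower on T3. By the mean, 28 spots were lower. Its pairs also differed more than those of most spots: the SD over the arrays was 0.41, and 91.2% of spots had a smaller one, with a median SD of 0.18 over all spots. The range between its arrays, 0.80, was smaller than the distance of its least negative array from 0, which was 0.85.

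For Dgat1, T1 gave a ratio of 0.55, T2 one of 0.53 and T3 one of 0.56. It was nearly the same in all pairs and in both dye orientations, at 1.47-fold, 1.44-fold and 1.48-fold. The mean was 0.55 ± 0.017 (SD, n = 3), which is 1.46-fold higher with testosterone. Only 32 of the 6039 spots (0.53%) had a smaller SD. Its rank differed between arrays all the same: 1.87% of spots were higher on T1, against 12.1% on T2 and 4.11% for T3. Over all spots the SD of the ratios was 0.32 for T1 and T3 and 0.49 for T2.

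For Aoc3 the ratios were 0.37 (T1), 0.63 (T2) and 0.24 (T3). It was above 0 in all pairs and highest on T2, the array with testosterone in Cy3, at 1.55-fold against 1.29-fold on T1 and 1.18-fold on T3. The mean was 0.41 ± 0.20 (SD, n = 3), which is 1.33-fold higher. Of all spots, 8.68% had a higher mean, and 56.3% had a smaller SD.

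**Figure D1:**
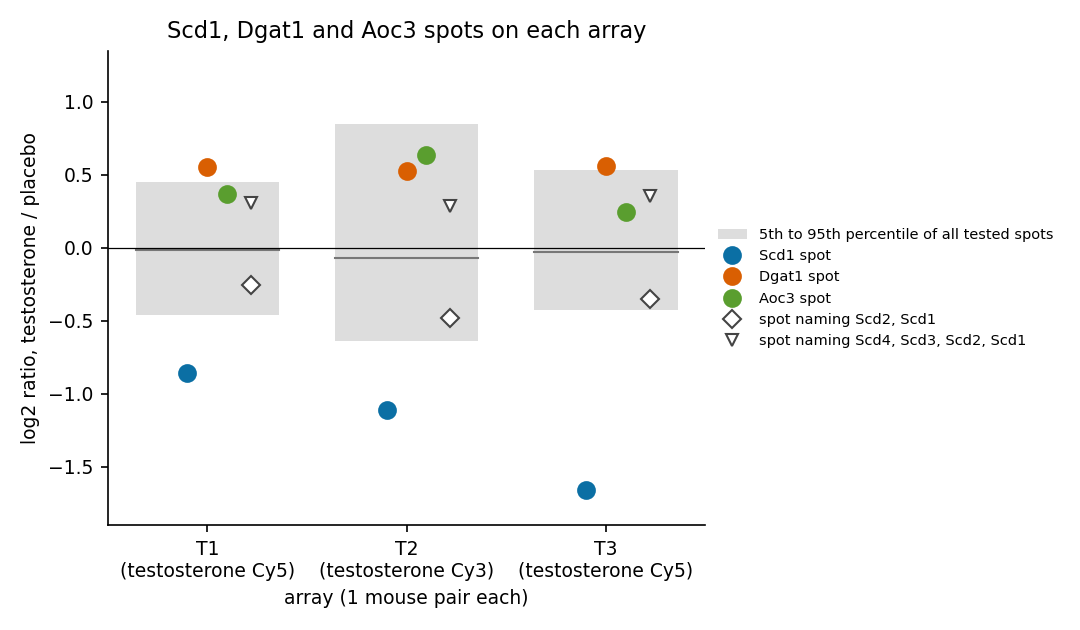
The log2 ratio of testosterone to placebo (vertical axis) on each array, 1 mouse pair each (horizontal axis), for the single spots of Scd1, Dgat1 and Aoc3 as filled circles, with grey bands from the 5th to the 95th percentile of the 6039 spots and a grey line at their median. The Scd1 circles, at -0.85, -1.11 and -1.66, lie under the band on every array, those of Dgat1 at 0.55 and 0.56 lie just over it on T1 and T3 and inside it on T2, and those of Aoc3 lie inside it. Open symbols show 2 further spots that the annotation assigns to several stearoyl-CoA desaturase genes.

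The plot by array shows how the genes stood to each other within a pair. Dgat1 exceeded Scd1 by 1.41, 1.64 and 2.22 on the log2 scale in the order of the arrays, a mean difference of 1.76 ± 0.42 (SD, n = 3). Aoc3 exceeded Scd1 by 1.22, 1.75 and 1.90, a mean of 1.62 ± 0.36. Dgat1 and Aoc3 had no fixed order: Dgat1 minus Aoc3 was 0.19, -0.11 and 0.32, a mean of 0.13 ± 0.22 that is smaller than its SD. The gap to Scd1 widened most on T3, where the Scd1 ratio was lowest. These are differences of ratios and not of expression levels.

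The 3 genes were selected on their testosterone to placebo ratios, with results of this same contrast known, so their ratios are given as a description and carry no test. At the gene level, limma placed 2 of the 3, Scd1 and Dgat1, among the genes called at a Benjamini-Hochberg adjusted p below 0.05, and 4.91% of all 3462 genes were called. By single spots the same 2 were called, against 2.83% of all spots. Nothing about the genes is read from these counts, since the choice of the genes fixes them. They also depended on single arrays: without T1 all 3 were called, without T2 none of them (0 of 3), and without T3 only Scd1. With the sign of T2 turned 0 of 3 were called, and with a dye term or with centring and scaling all 3 were. A consistent sign alone is common in these data, as 29.9% of spots were below 0 on all arrays and 23.9% were above 0 on all arrays.

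Stearoyl-CoA desaturase is a small family in the mouse, and Scd3, Scd2, Scd4 and Scd1 neighbour each other on 1 chromosome in RefSeq's table for GRCm38.p6. A further 2 spots with values on all arrays are annotated to Scd1 together with relatives, so they fall outside the choice of spots. The spot assigned to both Scd2 and Scd1 had ratios of -0.26, -0.48 and -0.35, a mean of -0.36 ± 0.11 (SD, n = 3) or 1.28-fold lower. The spot assigned to Scd4, Scd3, Scd2 and Scd1 had 0.30, 0.29 and 0.36, a mean of 0.32 ± 0.037 or 1.24-fold higher. The former thus has the sign of the Scd1 spot at a smaller size, and the latter has the opposite sign on all arrays. Neither can be given to a single gene. Aoc1, a secreted amine oxidase related to Aoc3, has a spot of its own with no value on any array.

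The other genes of lipid metabolism were taken from lists of enzymes, carriers and regulators. The lists name 212 genes beside the 3, of which 69 had a spot assigned to them alone and 40 had a value on all arrays. Of these 40, limma called 3 as higher (7.50%, against 1.68% of all genes) and 1 as lower (2.50%, against 3.24% of all genes), with 36 not called. Their median ratio was -0.011, beside -0.071 over all 3462 genes. Of the 40 means, 21 were below 0 (52.5%, against 62.4% of all genes). All 4 calls were lost without T2, without T3 and after centring each array on its median. The lists were chosen with earlier results of these data known, so these shares are given as a description.

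Among genes that make and modify fatty acids, 5 were measured beside Scd1. Of these, limma called 2 higher with testosterone and none lower, beside 1.68% and 3.24% of all genes. Elovl7, an elongase of long-chain fatty acids, had ratios of 0.36, 0.82 and 0.64 on T1, T2 and T3 as the mean of 2 spots. It was higher in all pairs, with a mean of 0.60 ± 0.23 (SD, n = 3; 1.52-fold; adjusted p = 0.0428 by limma). The 2 spots had means of 0.54 ± 0.11 and 0.67 ± 0.46, and the latter did not pass on its own (adjusted p = 0.055 by limma, over spots). Fads2, the delta-6 desaturase that acts on polyunsaturated fatty acids, had 0.34, 0.48 and 0.59, also above 0 in all pairs (0.47 ± 0.12; 1.38-fold; adjusted p = 0.0469). Hacd2, a dehydratase of the elongation cycle, stood at 0.18 ± 0.15 (adjusted p = 0.291), Hacd1, a relative of it, at 0.06 ± 0.21 and Acly, which supplies acetyl-CoA from citrate, at -0.07 ± 0.20. The desaturase genes Scd1 and Fads2 thus had ratios of opposite sign in every pair.

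Of 4 genes of triglyceride synthesis measured beside Dgat1, limma called 1 higher and none lower, beside 1.68% and 3.24% of all genes. Agpat4, an acyltransferase that forms phosphatidic acid, had 0.35 on T1, 0.53 on T2 and 0.53 on T3 (mean 0.47 ± 0.10, SD, n = 3; 1.38-fold; adjusted p = 0.0467 by limma). On T2 its ratio was that of Dgat1, 0.53. Lpin2, a phosphatase that makes diacylglycerol, the substrate of Dgat1, had 0.19 ± 0.031 (adjusted p = 0.231), with all pairs above 0. Gpam, which catalyses the first acylation of glycerol phosphate in mitochondria, had -0.30 ± 0.15 (adjusted p = 0.12), with all pairs below 0. Agpat5 was at 0.01 ± 0.13. No other gene of the membrane-bound O-acyltransferase family, to which Dgat1 belongs, had a value on all arrays.

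**Figure D2:**
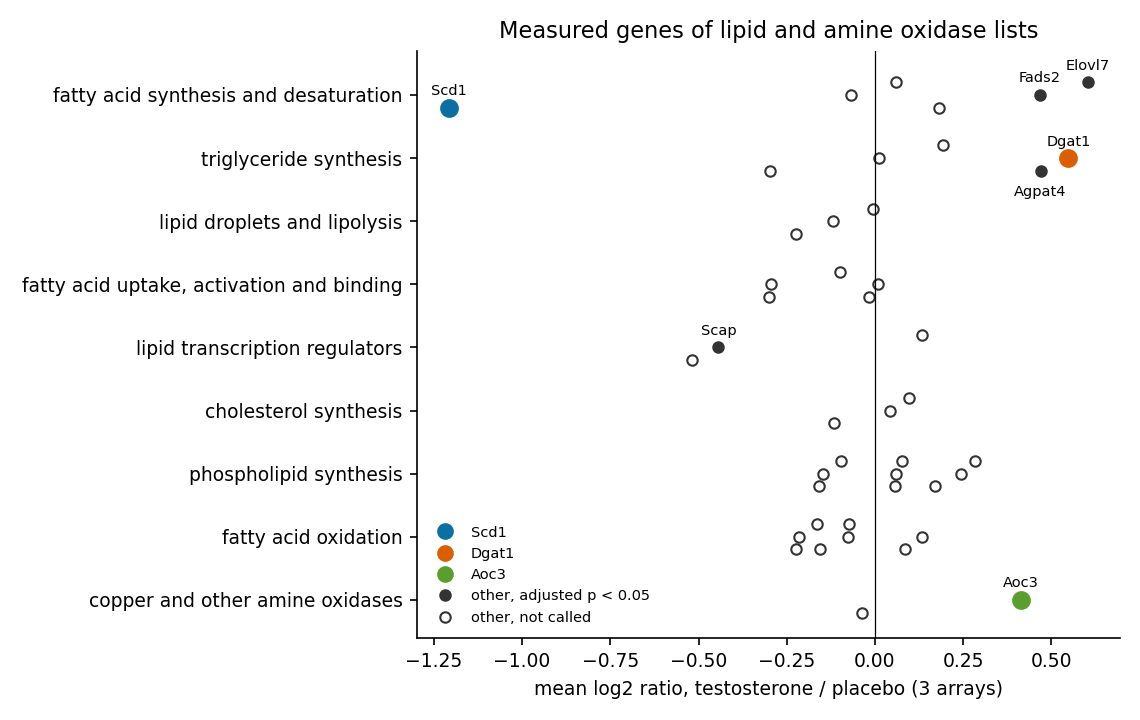
Each circle is the mean log2 ratio of testosterone to placebo over the 3 arrays (horizontal axis) of 1 measured gene, in rows by list; filled dark circles mark other genes with an adjusted p below 0.05 by limma and open circles genes not called. Scd1 at -1.21 lies far to the left of every other gene shown, while Dgat1 at 0.55 lies beside Agpat4 at 0.47 and below Elovl7 at 0.60.

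Regulators of lipid genes were thinly covered, with 3 measured genes. Of these, limma called 1 lower, beside 3.24% of all genes. Scap, the escort protein that carries the sterol-regulated transcription factors SREBP to the Golgi for activation, had ratios of -0.39, -0.57 and -0.37 (mean -0.44 ± 0.11, SD, n = 3; 1.36-fold lower; adjusted p = 0.0499 by limma). Mlxip, a glucose-responsive transcription factor, had -0.15, -0.86 and -0.54 over 2 spots (-0.52 ± 0.36; adjusted p = 0.0698). Insig2, which holds Scap back in the endoplasmic reticulum, had 0.13 ± 0.11 (adjusted p = 0.407). The adjusted p of Scap lay at the threshold, and with spots valued on at least 2 arrays it was 0.0525. Scap and Scd1 were both below 0 in all pairs, as were 29.9% of all spots, and a link between them was not tested.

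In the lists on storage, uptake, sterols, phospholipids and oxidation, limma called none of 28 genes, beside 4.91% of all 3462 genes. Of the 28, 3 had an unadjusted p below 0.05, which 28.1% of all genes had. Of 3 lipid droplet and lipolysis genes none had an unadjusted p below 0.05, and all means were below 0, the lowest being Pnpla2, the triglyceride lipase of fat cells, at -0.22 ± 0.13 (adjusted p = 0.199, SD, n = 3). Abhd5, the coactivator of that lipase, had -0.12 ± 0.12, and Bscl2, which shapes lipid droplets, had -0.005 ± 0.071. Of 5 genes of fatty acid uptake and binding 1 had an unadjusted p below 0.05, Fabp4, the fatty acid carrier of adipocytes and macrophages, at -0.30 ± 0.15 (adjusted p = 0.121). Cavin1, a coat protein of caveolae, had -0.10 ± 0.20, and Acsl3, which activates fatty acids, had -0.018 ± 0.12. Of 3 cholesterol synthesis genes none did, and their means lay between -0.12 for Ebp and 0.096 for Ggps1, with Cyp51, a sterol demethylase, at 0.042. Of 9 phospholipid synthesis genes 2 did, Chpt1, a cholinephosphotransferase that like Dgat1 uses diacylglycerol (0.28 ± 0.18; adjusted p = 0.147), and Pcyt1a, the regulated step of phosphatidylcholine synthesis (0.24 ± 0.064; adjusted p = 0.156). The Pcyt1a value is the mean of 2 spots that differed, at 0.08 ± 0.15 and 0.41 ± 0.051. Cds2, which activates phosphatidic acid, had 0.17 ± 0.019, and Pcyt2, of phosphatidylethanolamine synthesis, had -0.16 ± 0.16. Of 8 fatty acid oxidation genes none did, and 6 means were below 0, among them Acadm, a dehydrogenase of medium-chain fatty acids, at -0.21 ± 0.27, the hydratase Echs1 at -0.16 ± 0.23 and Cpt1a, the gate of mitochondrial fatty acid import, at -0.22 ± 0.45. The isomerase Eci1 had 0.13 ± 0.18.

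The adipocyte list had 8 genes with values on all arrays, Scd1 and Aoc3 among them. These 2 stood at its opposite ends. They were chosen with their ratios known, so nothing is read from their place in the list. For the other 6, limma called none, against 4.91% of all genes, and 2 had an unadjusted p below 0.05, against 28.1%. All 6 means were below 0, as were 62.4% of all gene means, and the median was -0.24 beside -0.071 over all genes. Car3, a carbonic anhydrase of fat and muscle, had 0.03, -1.97 and -0.93 (mean -0.96 with an SD of 1.004, n = 3; limma adjusted p = 0.103), so that only T2 and T3 were low. Fabp4 had -0.30, -0.44 and -0.15 and was below 0 in all pairs. Lpl, the lipase that releases fatty acids from lipoproteins, had 0.04, -0.40 and -0.54 (-0.30 ± 0.30; adjusted p = 0.179), again with T1 apart. Adipor2, a receptor for adiponectin, stood at -0.18 ± 0.22, Rbp4, a retinol carrier secreted by fat and liver, at -0.077 ± 0.074 and Orm1, an acute-phase protein, at -0.008 ± 0.44. Each of these is the mean of 2 spots. Those of Adipor2, at -0.24 ± 0.042 and -0.11 ± 0.42, had opposite signs on T1 and T3. Among the 8 genes with values on all arrays, Scd1 was lowest on T1 and T3 and Car3 on T2. Aoc3 alone of them was above 0 on every array, and nothing is read from this for genes chosen with their ratios known. Retn, Cidec, Aqp7 and Apoc1 had spots without a value on any array. Thrsp had values on T1 and T3 only, 0.18 and 0.42, and Acvr1c on T1 only, 0.15. These 2 genes, above 0 where they had a value, are not among the 8.

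**Figure D3:**
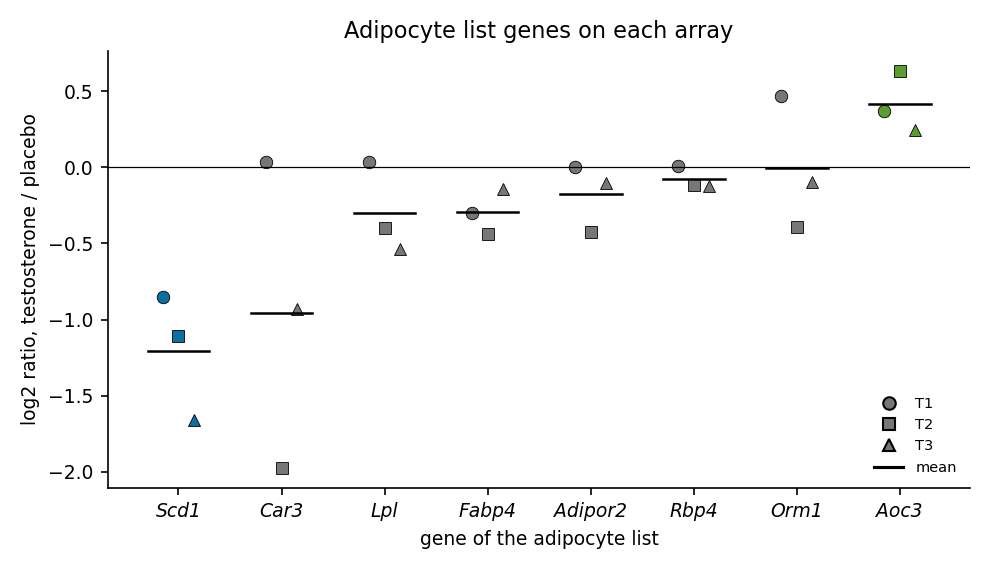
The log2 ratio of testosterone to placebo (vertical axis) of the 8 measured genes of the adipocyte list (horizontal axis), with 1 symbol per array and a bar at the mean of the 3 arrays. Scd1 lies lowest at a mean of -1.21 and Aoc3 highest at 0.41, both chosen with their ratios known. For Car3 and Lpl the T1 symbol lies near 0 while those of T2 and T3 lie below.

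Markers of other cell types were read on the same arrays. Of all genes, limma called 4.91%, while 28.1% had an unadjusted p below 0.05 and 62.4% a mean below 0. Of 8 measured B-lineage markers limma called 7 lower (3.24% of all genes were called lower). These were Fcrla, Cd79b, Bach2, Blk, Vpreb3, Pou2af1 and Il7r. The list medians were -2.27, -2.29 and -1.81 in the order of the arrays. For 5 skeletal muscle markers limma called none, while 4 had an unadjusted p below 0.05; all means were below 0 and the medians were -0.032, -0.82 and -0.45. Of 5 smooth muscle and pericyte markers none passed and 1 had an unadjusted p below 0.05, with medians of 0.13, -0.28 and 0.09. Of 3 endothelial markers none passed and none had an unadjusted p below 0.05, with medians of -0.10, -0.24 and 0.10. Of 6 macrophage markers none passed and 3 had an unadjusted p below 0.05, with medians of 0.19, 0.22 and 0.14. The 4 erythroid markers, with none passed and 2 at an unadjusted p below 0.05, had medians of 0.12, 0.52 and 0.33, and the 5 neutrophil markers, with none passed and none below that p, had 0.60, 0.11 and -0.15. The skeletal muscle medians, Car3 and Lpl were all near 0 on T1 and lower on T2 and T3. The part of any of these cell types in the ratios of Scd1, Dgat1 and Aoc3, or of Car3 and Lpl, was not tested.

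The genes most like each of the 3 were found by the Euclidean distance between the log2 ratios on the 3 arrays, over all 3462 genes. Scd1 had no close neighbour, its nearest being H2-Ob at a distance of 0.75, Serinc5 at 0.77, Gch1 at 0.78, Foxo1 at 0.81 and Ifi214 at 0.84. None of these 5 was as low as Scd1 on T3, where they ran from -1.16 for Serinc5 to -0.85 for Ifi214. Dgat1 lay close to Ascc3 at 0.082, Csgalnact1 at 0.11, Bpnt1 at 0.14, Mfn1 at 0.16 and Uba6 at 0.16, whose means ran from 0.46 to 0.53. Aoc3 lay close to Myo9a at 0.061, Cnnm3 at 0.067, Tfec at 0.09, Sco1 at 0.10 and Wwox at 0.11, all of which, like Aoc3, were highest on T2 and lowest on T3. With 3 points per gene, such likeness is a description of these pairs.

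**Figure D4:**
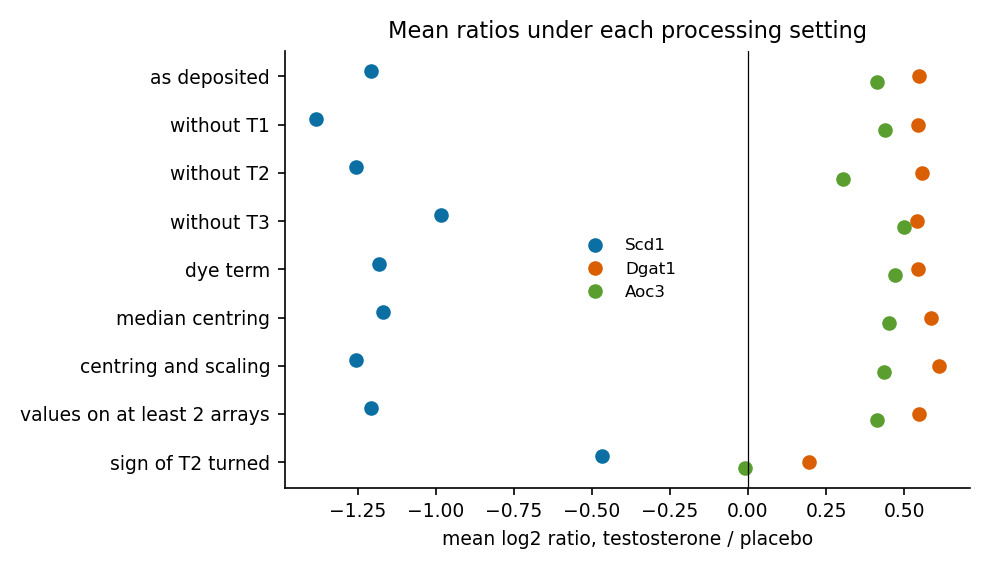
The mean log2 ratio of testosterone to placebo (horizontal axis) of Scd1, Dgat1 and Aoc3 under each way of handling the values (rows). Scd1 stays between -1.38 and -0.98 when single arrays are left out and Dgat1 between 0.54 and 0.56, while turning the sign of T2 brings Scd1 to -0.47, Dgat1 to 0.20 and Aoc3 to -0.008.

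The plot of settings separates what rests on single pairs from what rests on the orientation of T2. Leaving out 1 array moved the mean of Aoc3 the most in proportion, from 0.31 without T2 to 0.50 without T3. With the sign of T2 turned, as would be right if that array had been deposited as Cy5 over Cy3, the mean of Scd1 was -0.47, that of Dgat1 0.20 and that of Aoc3 -0.008. T2 as deposited correlated positively with T1 (Pearson r = 0.42 across 6039 spots, which are not independent replicates) and with T3 (r = 0.73), and T1 with T3 at r = 0.49. The B-lineage medians as deposited were -2.27 on T1, -2.29 on T2 and -1.81 on T3. Turning T2 would give its B-lineage median the opposite sign to those of T1 and T3. A dye term, which weights both orientations equally, gave -1.18 for Scd1, 0.54 for Dgat1 and 0.47 for Aoc3. On T1 and T3 alone, which share 1 orientation, the means were -1.26, 0.56 and 0.31.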

How the data were processed

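The authors deposited a signed log ratio for each spot of each array, taken here as log2; the normalization applied before deposit is not given in the sources used here, and the base is inferred from the range of the values. A natural log would make the folds 3.34 for Scd1, 1.73 for Dgat1 and 1.51 for Aoc3. Scale, centring and direction are not stated; the analysed spots had medians of -0.014 (T1), -0.070 (T2) and -0.029 (T3). Values were used as deposited, and spot brightness was not analysed here.

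Of 11552 spots, 6051 had a value on all arrays, and 12 control or non-mouse spots among them were left out. Genes were named from spots with 1 gene, with symbols updated by Entrez ID through the RefSeq table of GRCm38.p6 (7880 of 8050 spots matched). Spots of a gene were averaged per array. Ratios were tested against 0 with limma 3.58.1 in R 4.3.3 (lmFit, eBayes, two-sided, Benjamini-Hochberg over all genes or spots, threshold 0.05), after a check on simulated data. Precision is limited by the number of arrays.

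The 3 genes and the gene lists were chosen with earlier results of these data known. Genes named by rule are the 3, called genes of each list, the 4 of smallest p in each lipid, amine oxidase or adipocyte list, the 2 of smallest p in each other cell type list, and the 5 nearest per gene; cell type markers that were not called are given by their medians only. Other genes of the lists were named after their values were seen. Loxl1, the 1 other amine oxidase measured, had -0.037 ± 0.11 (SD, n = 3; limma adjusted p = 0.833). The list of markers of cell types covered adipocytes, smooth muscle, endothelium, skeletal muscle, B lineage, macrophages, neutrophils and erythroid cells. The alternatives were T2 turned, each array left out, a dye term, centring, centring with scaling, robust eBayes, spots in place of genes, values on at least 2 arrays and a looser threshold (0.10).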

Additional observations from a re-analysis of the deposited data

How the results depend on the processing

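The sign of each mean of Scd1, Dgat1 and Aoc3 held under every alternative run except 1: with T2 turned, Aoc3 was -0.008, Dgat1 0.20 and Scd1 -0.47. Without single arrays, Scd1 ran from -1.38 to -0.98, Dgat1 from 0.54 to 0.56 and Aoc3 from 0.31 to 0.50. Dgat1 was 0.59 after median centring and 0.61 after centring with scaling, steps larger than its SD. The counts of other lipid genes called by limma, 3 higher and 1 lower, rested on few arrays: without single arrays they ran from 0 to 3 higher and from 0 to 3 lower. With T2 turned and after median centring both were 0. Spots in place of genes gave 1 higher and 0 lower, a dye term 2 lower, values on at least 2 arrays 0 lower and a threshold of 0.10 gave 2 lower. Over all 3462 genes limma called 58 higher and 112 lower. With T2 turned it called 0 and 0, with 19 genes at an unadjusted p below 0.05 against 972, and without single arrays the calls were 290 higher and 333 lower (T1), 1 and 34 (T2) and 1 and 32 (T3). The dye term gave 180 and 205, centring 8 and 53, and centring with scaling 165 and 132. The cause of these changes was not tested. Amine oxidase calls were 0 under every alternative run, of 1 gene, or of 2 genes with values on at least 2 arrays; in the values as deposited 0 had an unadjusted p below 0.05. The arrays each hold 1 matched pair, so the ratio itself is paired, and no other block could be fitted.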
